A study of Mus musculus with 20 samples.

Results

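MicroRNA genes were read in this series as stretches of longer RNA. The microRNA genes followed here are the 86 genes that GENCODE M21 types as miRNA and that held 50 or more counts summed over all 20 libraries, out of 2207 microRNA genes and 55471 genes in the count table. They were chosen by that total over all groups and not by any difference between groups, so the totals are given as a description. A gene could still reach the total mainly through a group in which it was high. Of the other microRNA genes, 1654 held no count and 467 held between 1 and 49. Just inside the limit of 50 were Mir3473g (51 counts), Gm22328 (52) and Mir3109 (52), and just outside it were Mir3473d (49), Mir3075 (47) and Mir1953 (46). Together the 86 genes held 20771 counts, which is 0.0085% of all gene counts. Of their names, 71 begin with Mir and 14 with Gm, and the one left carries the name of a small nucleolar RNA, Snord43.

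The cells were SIMS, a mouse salivary gland line, grown as a culture and sequenced as total RNA. There were 5 groups of 4 libraries: wild-type cells, cells with a Cas9 knockout of Btbd7 that the design text names as the negative control, and 3 clones with a Cas9 knockout of Zcchc8. Each Zcchc8 KO group is 1 clone, and the labels do not say whether the Btbd7 KO libraries also come from 1 clone or whether libraries of a group come from separate cultures, so p-values measure the spread between these samples only. Btbd7 RNA was 202 ± 7.64 CPM (SD, n = 4; CPM is the count scaled by the library's effective size, not per length) in wild type and 99.2 ± 3.23 in the Btbd7 KO. Zcchc8 RNA was 65.1 ± 2.92 CPM in wild type, 60.3 ± 4.28 in clone 1, 23.3 ± 1.35 in clone 2 and 54.6 ± 4.84 in clone 3. Its log2 difference from wild type was -0.11 ± 0.08 (SE) in clone 1, with an adjusted p of 0.291 in edgeR, and -0.26 ± 0.08 in clone 3 (adjusted p 0.0135), so the RNA level checks the label of clone 2, is only slightly lower in clone 3 and says little about clone 1.

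A microRNA gene is transcribed by RNA polymerase II as a long primary transcript, or lies inside an intron or exon of a host gene. Drosha and Dgcr8 cut the hairpin out in the nucleus, Xpo5 carries it to the cytoplasm, Dicer1 trims it to a short duplex, and an Argonaute protein loads one strand, whose seed (bases 2 to 8) pairs with target mRNAs. ZCCHC8 is a zinc-knuckle scaffold of the nuclear exosome targeting complex, which with Rbm7 and the helicase Mtrex hands short-lived nuclear RNAs, such as upstream promoter transcripts (PROMPTs), to the RNA exosome.

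The mature sequences of 12 microRNA genes that rose in the Zcchc8 KO are shown first because they name the products whose primary transcripts are described. Sequences are RefSeq's on GRCm38.p6, 66 of the 86 genes matched by symbol, and capitals mark the seed. These lines give 1 mature strand for each gene.
miR-8116: aAGGAUCCggggcuaguuggc
miR-8111: aCCGGGCAugguaguguacac
miR-3089-5p: uGAGUUCAgggacagcgugucu
miR-7671-5p: aGGCUCCGcucuggcuagcuucc
miR-1934-5p: uCUGGUCCccugcuucguccucu
miR-1932: gUUGCGGAcagcgcuaggucgg
miR-5135: aGGUCUAGguggcaagggcguccu
miR-706: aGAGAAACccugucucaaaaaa
miR-26b-5p: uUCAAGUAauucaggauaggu
miR-23a-3p: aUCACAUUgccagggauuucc
miR-200a-3p: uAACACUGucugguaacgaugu
miR-181c-5p: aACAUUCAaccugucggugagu
No seed is shared within this set.

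Reads of total RNA libraries cover the whole hairpin gene and its flanks, and a free mature strand is too short for such a library. Hairpins show what was counted, with the mature strands in capitals. Those printed are of the 3 genes whose Zcchc8 KO libraries all lay above all control libraries (as for 4.62% of all tested genes). They lie at chr5:137293780-137293876 (plus strand) for Mir8116, chr2:30721210-30721293 (plus) for Mir3089 and chr11:53763597-53763654 (minus) for Mir7671, in the same build.
Mir8116: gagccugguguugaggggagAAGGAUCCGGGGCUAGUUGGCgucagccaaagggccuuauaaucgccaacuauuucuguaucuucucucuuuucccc
Mir3089: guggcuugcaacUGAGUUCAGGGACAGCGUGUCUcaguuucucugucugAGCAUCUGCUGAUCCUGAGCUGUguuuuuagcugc
Mir7671: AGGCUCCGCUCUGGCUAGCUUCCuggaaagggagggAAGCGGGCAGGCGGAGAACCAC
Mir7671 is annotated as little more than its own hairpin, 58 bases long. The annotated lengths of all 86 genes ran from 56 to 188 bases. Of the 57 genes with a hairpin sequence in the RefSeq table, the 10 that rose had a median GC content of 57.4% (range 51.2 to 67.8%), beside 48.8% (32.5 to 62.4%) in the 25 that were tested and did not pass, a description with no test.

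Several of the genes share a seed, with or without sharing a locus. Mir15b and Mir16-2, for example, lie beside each other in Smc4. The let-7 family, whose mature RNAs restrain growth-promoting mRNAs in differentiated cells, was present through 3 genes at different places: Mirlet7c-1 in Mir99ahg, Mirlet7e in Spaca6 and Mir98 in Huwe1.
let-7c-5p: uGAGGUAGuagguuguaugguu
let-7e-5p: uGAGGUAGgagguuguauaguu
miR-98-5p: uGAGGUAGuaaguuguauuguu
Mir15a, Mir15b and Mir16-2 share AGCAGCA, and Mir130a, Mir301 and Mir721 share AGUGCAA. Mir221 and Mir222 share GCUACAU and lie beside each other on the X chromosome. Mir99a and Mir99b share ACCCGUA, and Mir8116 and Mir7679 share AGGAUCC.

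Nearly all of the counted genes inside a host lay in its introns. Of the 86 genes, 64 lay on the same strand inside a host gene, 58 of them in protein-coding hosts, and 22 had no host. Of the 64, 63 lay in introns and only Mir7090, in Ctnnb1, the gene of beta-catenin, overlapped an exon. Over all annotated microRNA genes, 63 of 814 intronic ones (7.74%), 1 of 364 exonic ones (0.275%) and 22 of 1029 without a host (2.14%) reached 50 counts. Among those whose host held 1000 or more counts, 61 of 407 intronic genes (15.0%) and 1 of 203 exonic genes (0.493%) reached it.

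The named primary transcripts show the same pattern. Mir17hg, the primary transcript of the proliferation-linked miR-17-92 cluster, held 6360 counts, and the 6 microRNA genes in its exons held 0. Mir22hg held 2494 counts and Mir22 in its exon 0. Mir99ahg held 8185 counts, and 2 of the 3 microRNA genes in its introns held counts, Mir99a with 133 and Mirlet7c-1 with 123, while Mir125b-2 held 0. How reads over 2 overlapping genes were assigned is not given in the sources used here, so counts of 0 for exonic microRNA genes do not show that their primary transcripts were absent.

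The depth was low for these short genes. Library totals ran from 6833258 to 17771804 counts, of which the 86 genes took 498 to 2101, and the median gene held 112 counts over 20 libraries. Wild-type replicate 1 stood apart: 25 of the 86 genes had a count in it, against 65, 70 and 74 in the other wild-type libraries, 70 to 75 in the Btbd7 KO and 68 to 84 in the Zcchc8 KO. It held 0 for 61 genes and the highest value of any library for others, such as Mir7-1 at 10.5 CPM and Mir7679 at 2.93 CPM, so the count of genes that rose is also given without it. Epithelial markers (Epcam, Cdh1, keratins) summed to between 3105 and 5048 CPM in every library. The wild-type level of Aqp5, a water channel of acinar cells, was 178 ± 9.55 CPM (SD, n = 4), while the amylase gene Amy1 was at 0.16 ± 0.20 CPM and the acinar secretory genes Smr3a and Lpo were at 0 there. Leukocyte, endothelial and myoepithelial marker sums were at most 1.45 CPM, and fibroblast marker sums ran from 9.34 to 32.6 CPM.

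Zcchc8 KO cells were compared with wild type to see which microRNA primary transcripts accumulate or are lost when this exosome adaptor is edited. The change is the mean of the 3 clones against wild type, tested with edgeR's quasi-likelihood test over all 15297 genes that passed a filter on low counts, with a Benjamini-Hochberg adjusted p below 0.05. Of the 86 genes, 52 could be tested and 14 of them rose (26.9%), beside 16.2% of all tested genes that rose and 19.9% that fell. None of the 52 fell in edgeR or in DESeq2, and 1 was lower at an unadjusted p below 0.05 in each. This count is no measure of the whole list, because 13 of the 14 passed the filter only through groups other than wild type. Only 5 of the 52 passed it in all 4 wild-type libraries. All of the 14 except Snord43 and Mir23a also reached the count limit for being followed here only with their Zcchc8 KO counts. The number that rose, and the size of those rises, are therefore partly set by the choice of genes. Without wild-type replicate 1, 12 rose and 1 fell of 55 tested (17.5% and 18.7% of all genes). The 12 were all among the 14, and the median log2 change of the tested genes was 0.70 in place of 1.05.

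**Figure D1:**
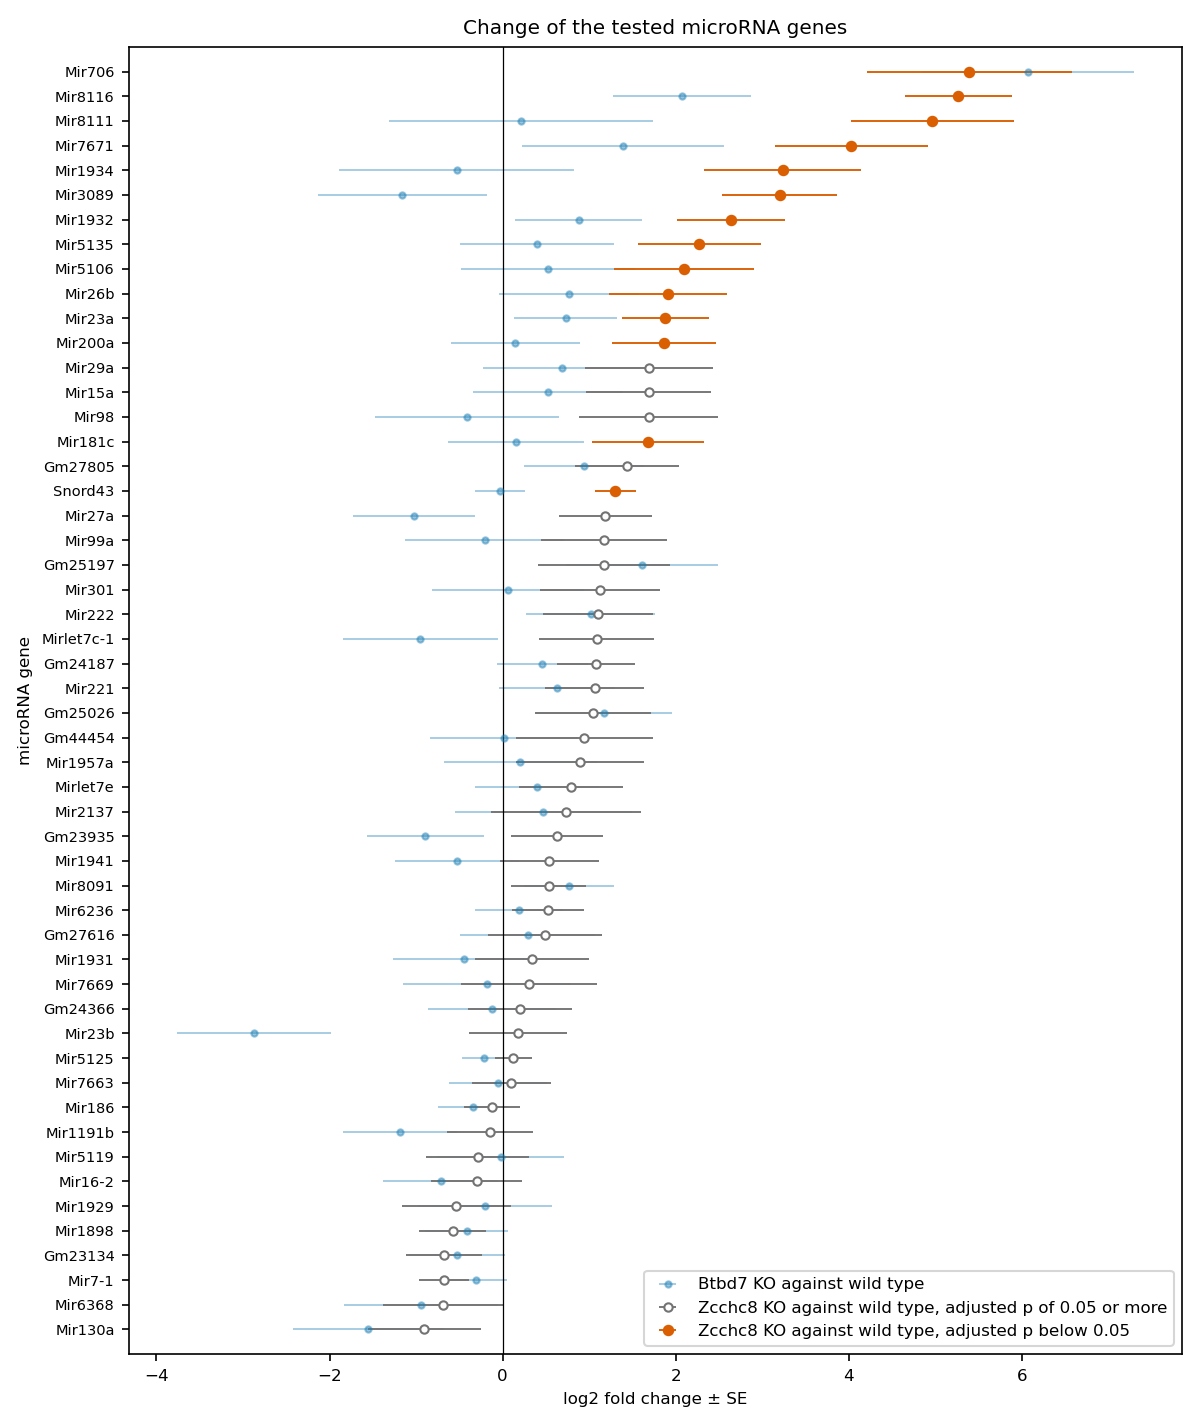
Log2 fold change with its standard error (x axis) of the 52 tested microRNA genes (y axis, ordered by change), for the mean of 3 Zcchc8 KO clones against wild type (grey or orange) and for Btbd7 KO against wild type (blue). The 14 orange genes run from Snord43 at 1.30 to Mir706 at 5.39, and of these only Mir706 also passed the test in the Btbd7 KO. Mir706 held no count in wild type, so its fitted values are no bound.

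In the clones taken by themselves, 9 of the 52 genes rose in clone 1, 11 in clone 2 and 13 in clone 3, where 16.7%, 16.1% and 14% of all genes rose and 19.1%, 16.2% and 15.3% fell. None fell in any clone in edgeR or DESeq2, and at an unadjusted p below 0.05 none was lower in edgeR and 1 was lower in clone 2 in DESeq2. In the Btbd7 KO, 1 gene rose (Mir706) and 1 fell (Mir23b), where 7.73% of all genes rose and 8% fell. Set against the Btbd7 KO, which takes no wild-type library into the difference, the Zcchc8 KO had 13 genes higher and 0 lower, beside 18.8% and 22.2% of all genes (41.1% in either direction). At an unadjusted p below 0.05 none was lower there in either tool. The comparisons with wild type share its 4 libraries.

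Of the 14 genes that rose, 7 had no host gene, and these lay in intergenic or antisense sequence. The primary transcript of Mir3089, between annotated genes on chromosome 2, was at 0, 0.0579, 1.12 and 0 CPM in the wild-type libraries and at 0.121, 0.0664, 0 and 0.253 CPM in the Btbd7 KO. In the 12 Zcchc8 KO libraries it ran from 1.71 CPM through a median of 2.34 to 4.60 CPM. Every Zcchc8 KO library lay above every control library. The log2 difference from wild type was 3.20 ± 0.67 (SE), with an adjusted p of 5.04e-04 in edgeR, and the fitted value was 6.41 when wild-type replicate 3, the library at 1.12 CPM, was left out. Its start lies 1153 bases from the oppositely transcribed start of Gm14488, a gene with no assigned function, which rose by 2.86 ± 0.32 (adjusted p 1.47e-07).

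Mir8111, on chromosome 8 at 84005628-84005764 (plus strand), was almost silent in controls. Its wild-type libraries held 1 count in all and the Btbd7 KO libraries 1 count, while the 12 Zcchc8 KO libraries held 108. The ratio of pooled levels to wild type was 53.4, with an exact 95% counting interval of 9.38 to 2127. Mir8111 reached 50 counts only with its Zcchc8 KO counts, so this ratio is partly set by that limit. Clone 1 held 1.82, 1.08, 1.74 and 1.27 CPM, clone 2 held 0.274, 1.07, 0.799 and 0.414 CPM, and clone 3 held 0.641, 0, 0.510 and 0.954 CPM. Clone 1 was the highest, and 1 library of clone 3 held no count. The fitted log2 difference was 4.97 ± 0.95 (adjusted p 1.88e-04). The gene starts 858 bases past the end of 1700067K01Rik on the same strand, which changed by 0.62 ± 0.36 and did not pass the test (adjusted p 0.182).

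Mir7671 and Mir1934 lie close to promoters of well-expressed genes read in the opposite direction. Mir7671, 6360 bases from the start of Irf1, an interferon-response transcription factor, held 2 counts over the 4 wild-type libraries and 84 over the 12 Zcchc8 KO libraries, a ratio of pooled levels of 20.7 (exact 95% interval 5.57 to 174). Like Mir8111 and all other genes that rose except Snord43 and Mir23a, Mir7671 reached 50 counts only with its Zcchc8 KO counts. Its lowest, median and highest Zcchc8 KO libraries were at 0.204, 0.604 and 1.45 CPM, and all 12 lay above all 8 controls, whose highest was 0.169 CPM. Irf1 itself differed by -0.10 ± 0.08 (adjusted p 0.347). Mir1934, on chromosome 11, starts 401 bases from the start of Mpdu1, a gene of dolichol-linked sugar transfer. It was at 0, 0, 0 and 0.235 CPM in wild type and rose by 3.24 ± 0.91 (adjusted p 0.00668), while Mpdu1 differed by 0.12 ± 0.10 (adjusted p 0.380). By clone, Mir1934 did not pass in clone 3 (2.62 ± 1.05, adjusted p 0.0618). The few wild-type counts of Mir7671 and Mir1934 lay in 1 library each, replicates 2 and 4. Both genes passed without it too, but the wild-type group is then at 0 and the fitted changes (6.01 and 6.03) are no bound.

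Mir1932 and Mir5135 completed the genes without a host outside the Mir23a cluster. Mir1932, on chromosome 11, was at 0, 0.231, 0.374 and 0.293 CPM in wild type and between 0.750 and 2.30 CPM in the Zcchc8 KO, so those groups did not overlap. A Btbd7 KO library at 1.02 CPM lay inside the Zcchc8 KO range. The rise was 2.64 ± 0.62 (adjusted p 0.00158). Mir5135, on chromosome 12, was at 0, 0.289, 0 and 0.352 CPM in wild type and at 0.542 to 1.77 CPM in the Zcchc8 KO, also without overlap, and rose by 2.27 ± 0.71 (adjusted p 0.0140). Of all 52 tested genes, 5 had every Zcchc8 KO library above every wild-type library (6.01% of all tested genes did) and 3 had it above all 8 control libraries (4.62% of genes, with 2.39% below). The first 5 were Mir8116, Mir3089, Mir1932, Mir5135 and Mir7671. All of these reached the count limit only with their Zcchc8 KO counts, so their separation is partly set by the choice of genes. None of the 52 had every Zcchc8 KO library below wild type (4.12% of genes). A gene with no count in any 1 wild-type library could not meet that rule. Wild-type replicate 1 held 0 for 61 of the microRNA genes followed here, so this absence says little about direction.

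**Figure D2:**
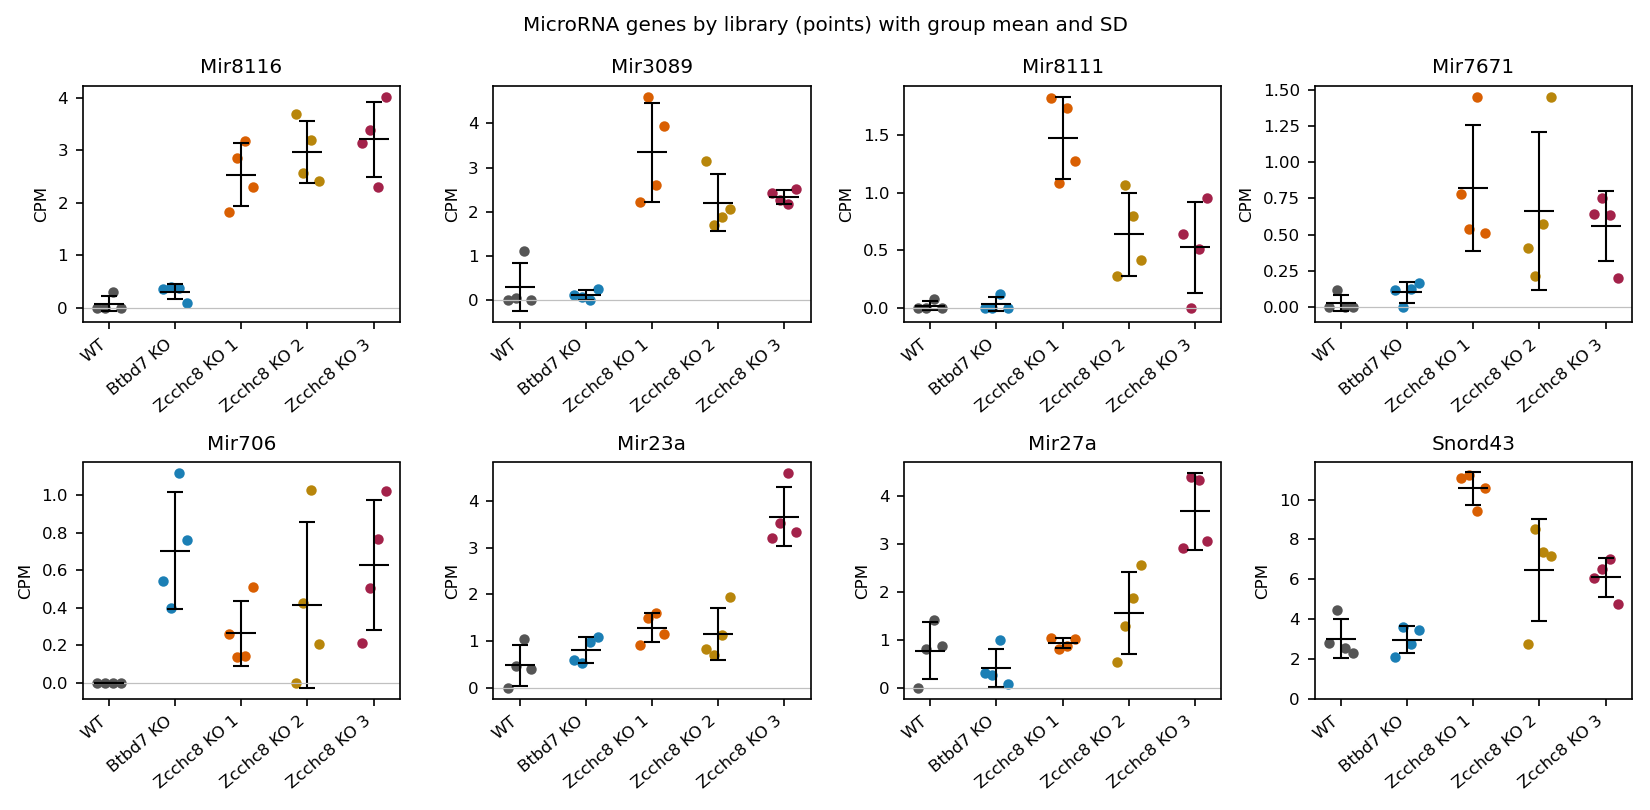
CPM per library (points), with the group mean and SD (bars), for 8 microRNA genes in wild type (WT), Btbd7 KO and the 3 Zcchc8 KO clones. Mir8116, Mir3089 and Mir7671 have every Zcchc8 KO library above every control, as have 4.62% of all tested genes. Mir706 is also present in the Btbd7 KO, and Mir23a and Mir27a are highest in clone 3.

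Mir23a and Mir27a form the head of a cluster on chromosome 8 whose mature RNAs are known from studies of muscle mass and haematopoiesis, and they had no annotated host. Mir23a was at 0, 0.463, 1.05 and 0.410 CPM in wild type. It was at 0.912, 1.49, 1.59 and 1.15 CPM in clone 1 and at 0.822, 0.712, 1.14 and 1.93 CPM in clone 2. Clone 3 stood above every other library at 3.20, 3.52, 4.59 and 3.34 CPM. The mean change was 1.88 ± 0.51 (adjusted p 0.00471), but by clone only clone 3 passed, at 2.93 ± 0.57 (adjusted p 3.45e-04), and the test of a difference among clones passed (adjusted p 0.0247).

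Mir27a was likewise highest in clone 3. It was at 0, 0.810, 1.42 and 0.880 CPM in wild type and at 2.92, 4.39, 4.33 and 3.07 CPM in clone 3, again above all other libraries. Its mean change of 1.19 ± 0.54 did not pass (adjusted p 0.0864), while clone 3 did at 2.23 ± 0.62 (adjusted p 0.00749), and clones differed (adjusted p 0.0474). Without wild-type replicate 3 the mean change passed too (1.62, adjusted p 0.0418). Of the upstream genes considered on that strand (200 or more counts), Gm37352 was the nearest. It ends 5469 bases before Mir23a and rose by 0.96 ± 0.07 (adjusted p 2.68e-11 in edgeR). Mir181c, in an intron of Nanos3 on the minus strand of chromosome 8, was also highest on average in clone 3, at 1.85, 1.51, 1.91 and 1.70 CPM against 0 to 0.897 CPM in wild type, with 1 library of clone 1 inside that range at 1.69 CPM. Its mean change was 1.68 ± 0.65 with an adjusted p of 0.0456, and it missed the threshold when any of 17 of the 20 libraries was left out in turn, wild-type replicate 1 included (1.31, adjusted p 0.0834), while it was at 2.94 (adjusted p 0.00392) without wild-type replicate 3. Over the 52 genes the clones differed for 3, Mir23a, Mir27a and Snord43, where they differed for 28.5% of all genes.

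Among genes inside hosts, Mir8116 and its host Ache both rose. Mir8116 held more counts than the whole of Ache, 397 against 104 over all 20 libraries. Ache, the acetylcholinesterase gene, was at 0, 0, 0.0748 and 0 CPM in wild type and at 0.271 to 1.26 CPM in the Zcchc8 KO, a log2 difference of 4.87 ± 0.85 (adjusted p 7.46e-05). Mir8116, in an intron 90.1% of the way along Ache, was at 0, 0, 0.299 and 0 CPM in wild type, at 0.362, 0.398, 0.372 and 0.0845 CPM in the Btbd7 KO, and at 1.82 to 4.02 CPM in the Zcchc8 KO, with a median of 2.99. No Zcchc8 KO library came near a control. It rose by 5.26 ± 0.62 (adjusted p 3.16e-07), and the test also passed without wild-type replicate 3, which held all its 4 wild-type counts (fitted value 8.13, no bound since that leaves a group at 0). The ratio of Mir8116 to Ache counts changed by 1.51 ± 0.52 and did not pass (adjusted p 0.0596), a comparison limited by the near absence of both from wild type.

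Each gene in a host was then set against that host, as log2 of the ratio of their counts with 0.5 added to each, in limma over 1345 nested pairs. Of the 35 pairs with a microRNA gene, 3 had a higher ratio in the Zcchc8 KO (8.57%) and 0 a lower one, where 12.7% of all nested pairs were higher and 1.19% lower (13.9% in either direction). At an unadjusted p below 0.05, 12 were higher and 0 lower, and edgeR with the host count as an offset gave 2 higher and 0 lower. Without wild-type replicate 1, 2 of the 35 remained.

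Of these, Snord43 in Rpl3 was the pair with counts in every wild-type library. Rpl3 is the gene of a large-subunit ribosomal protein. Box C/D small nucleolar RNAs guide methylation of ribosomal RNA, and Snord43 carries such a name although GENCODE M21 types it as miRNA. Snord43 was at 2.80, 4.46, 2.54 and 2.29 CPM in wild type and at 2.11, 3.58, 2.73 and 3.46 CPM in the Btbd7 KO. Clone 1 held 11.1, 11.2, 9.41 and 10.6 CPM, clone 2 held 2.74, 8.55, 7.36 and 7.18 CPM, and clone 3 held 6.05, 6.53, 7.01 and 4.77 CPM. All Zcchc8 KO libraries but replicate 1 of clone 2 lay above all controls. Rpl3 did not pass (-0.12 ± 0.06, adjusted p 0.110), and the log2 ratio to it rose by 1.42 ± 0.25 (adjusted p 5.90e-04). Snord43 was also the only one of the 14 that passed the low-count filter in all 4 wild-type libraries, and its own rise was 1.30 ± 0.24 (adjusted p 1.02e-04).

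The level of Mir5106 was 0, 0, 0.150 and 0.352 CPM in wild type and 0.137 to 1.28 CPM in the Zcchc8 KO, and the groups overlapped. Its change of 2.09 ± 0.81 (adjusted p 0.0454) was close to the threshold. It missed it in 14 of the 20 fits that left out 1 library, wild-type replicate 1 included (1.73, adjusted p 0.0863), and was at 3.42 (adjusted p 0.0135) without wild-type replicate 4.

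**Figure D3:**
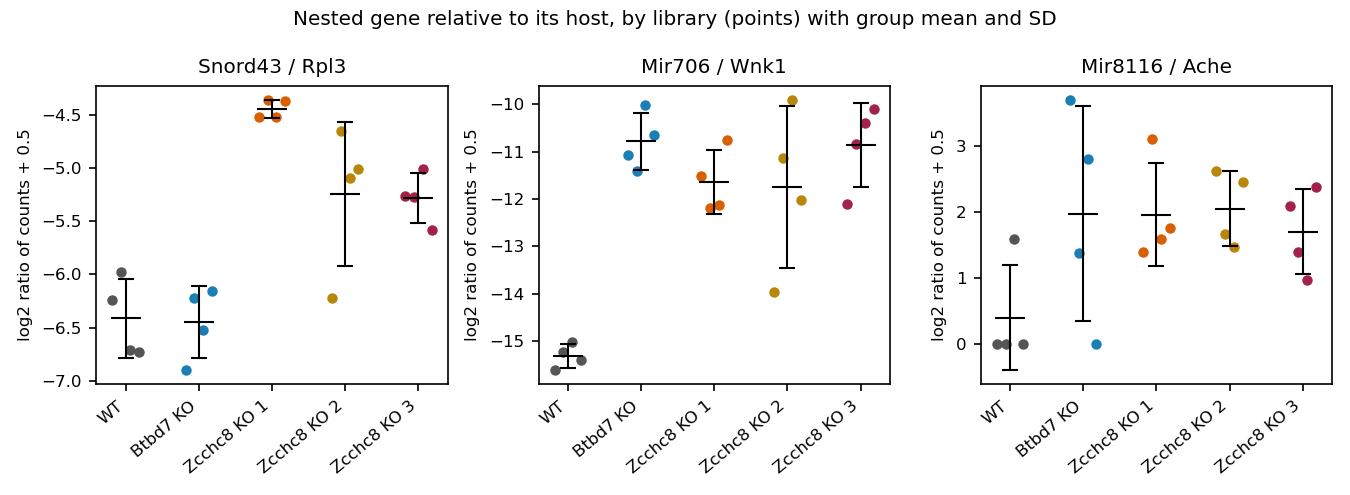
Log2 ratio of nested gene counts to host gene counts, 0.5 added to each, per library (points) with the group mean and SD (bars), for Snord43, Mir706 and Mir8116. The Snord43 ratio lies between -6.73 and -5.97 in wild type and between -5.58 and -4.37 in all Zcchc8 KO libraries except the library at -6.22. The Mir706 ratio is higher in the Btbd7 KO as well, its wild-type points resting on the 0.5 added. In wild-type replicates 1, 2 and 4 neither Mir8116 nor its host held a count, so those Mir8116 points rest on the 0.5 added too.

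Mir706 moved in both knockouts. It lies 4361 bases into Wnk1, a kinase gene of ion transport, and held no count in the 4 wild-type libraries. The Btbd7 KO libraries were at 0.543, 0.398, 1.12 and 0.760 CPM and the Zcchc8 KO libraries ran from 0 through 1.03 CPM. Taking 3 counts over the wild-type group as its limit, pooled levels were at least 13.5-fold higher in the Btbd7 KO and at least 10.4-fold higher in the Zcchc8 KO. The adjusted p was 0.00126 for the Btbd7 KO and 9.95e-04 for the Zcchc8 KO, and the difference between the knockouts did not pass (-0.68 ± 0.61, adjusted p 0.406, Zcchc8 KO minus Btbd7 KO). Wnk1 was lower in the Zcchc8 KO (-0.35 ± 0.06, adjusted p 4.82e-05). The ratio of Mir706 to Wnk1 was higher in the Zcchc8 KO (adjusted p 1.73e-04) and in the Btbd7 KO (adjusted p 0.00634), where 0.223% of all nested pairs changed. Its size is not given, since with no wild-type count the wild-type ratio rests on the 0.5 added.

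Mir23b, in an intron of 2010111I01Rik, was the gene that fell in the Btbd7 KO. It was at 0.585, 0.347, 0.374 and 0.586 CPM in wild type and at 0.181, 0, 0 and 0 CPM in the Btbd7 KO, with no overlap in the CPM values. The change was -2.88 ± 0.89 (adjusted p 0.0269), which missed the threshold without wild-type replicate 4 or without replicate 2, 3 or 4 of the Btbd7 KO (-2.74 to -2.48). Without Btbd7 KO replicate 1, which held its 3 Btbd7 KO counts, the fitted value was -5.52, no bound since that leaves a group at 0. Its host changed by -0.61 ± 0.10 (adjusted p 6.90e-05) in the Btbd7 KO. In the Zcchc8 KO Mir23b differed by 0.18 ± 0.57 (adjusted p 0.843).

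Mir26b and Mir200a rose with hosts that rose less. Mir26b lies in Ctdsp1, a small phosphatase of the polymerase II tail, and was at 0, 0.231, 0.523 and 0.469 CPM in wild type and 0.382 to 2.69 CPM in the Zcchc8 KO. It rose by 1.91 ± 0.68 (adjusted p 0.0299) and Ctdsp1 by 0.28 ± 0.07 (adjusted p 0.00174). Mir200a, of the family that holds epithelial identity by repressing Zeb factors, lies in Gm13648 and was at 0, 0.174, 0.374 and 0.645 CPM in wild type and 0.382 to 1.92 CPM in the Zcchc8 KO. It rose by 1.87 ± 0.60 (adjusted p 0.0164) and Gm13648 by 0.47 ± 0.15 (adjusted p 0.0156). Mir26b missed the threshold without wild-type replicate 2, clone 1 replicate 3 or clone 2 replicate 4 (1.80, 1.76 and 1.79), and Mir200a without wild-type replicate 2 (1.67, adjusted p 0.0525). For both genes the wild-type and Zcchc8 KO ranges overlapped, and neither ratio to the host passed (adjusted p 0.0762 and 0.0629).

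**Figure D4:**
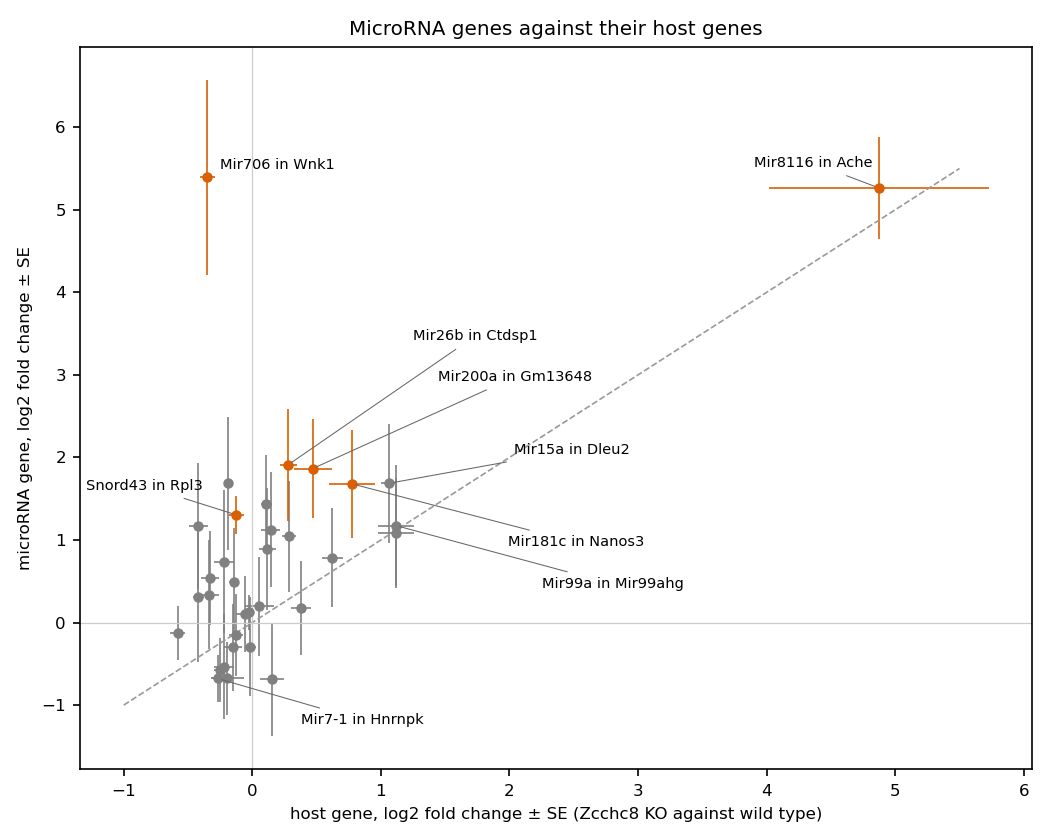
Log2 fold change with its standard error of tested microRNA genes (y axis) against that of their hosts (x axis; 1 pair is not drawn), Zcchc8 KO mean against wild type, with the line of equal change dashed and genes that passed the test in orange. Mir8116 and Ache lie near the line at 5.26 and 4.87, whereas Mir706 is at 5.39 and its host Wnk1 at -0.35. Mir706 held no count in wild type, so its fitted value is no bound.

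The hosts moved in both directions. Of 61 host genes, all of which were tested, 14 rose and 20 fell in the Zcchc8 KO (55.7% changed, beside 36.1% of all genes), and in the Btbd7 KO 6 rose and 13 fell (15.7% of all genes changed). After Ache, the largest rises were in hosts that are themselves noncoding: Mir99ahg rose by 1.12 ± 0.14 (adjusted p 6.90e-07) and Dleu2, the host of Mir15a, by 1.07 ± 0.06 (adjusted p 8.51e-13). Mir99ahg was at 31.2, 15.4, 15.1 and 26.9 CPM in wild type, at 12.9 to 15.2 CPM in the Btbd7 KO and at 35.7 to 59.6 CPM in the Zcchc8 KO, and it fell by 0.62 in the Btbd7 KO (adjusted p 0.0133). The lowest change was in Zranb2, a splicing factor and the host of Mir186, at -0.58 ± 0.06 (adjusted p 3.78e-08). Of the 7 hosted genes that rose, 4 had a host that rose, 1 a host that fell and 2 a host that did not pass. The direction of calls depends on the scaling here: without TMM factors 19 hosts rose and 13 fell, and of all genes tested 3229 rose and 2005 fell in place of 2474 and 3046.

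The microRNA genes with the most counts were mostly among those that did not pass. Mir7-1, whose mature RNA restrains growth factor signalling, lies in Hnrnpk and was at 10.5, 2.72, 2.54 and 6.22 CPM in wild type and 2.61 to 5.07 CPM in the Zcchc8 KO (-0.68 ± 0.29, adjusted p 0.0678). Without wild-type replicate 1, the highest of these, it was at -0.15, and without replicate 2 or 3 it passed (-0.91 and -0.90). Gm23935, the gene with the most counts (4583), was at 0.715, 45.8, 10.6 and 4.34 CPM in wild type, a spread wider than its change (0.63 ± 0.53, adjusted p 0.383), which was 2.23 without wild-type replicate 2 and then passed (adjusted p 0.00162), and 0.25 without replicate 1. Mir5125 in Srrm2 was even across groups, at 3.06, 3.24, 4.04 and 4.69 CPM in wild type and 2.32 to 7.19 CPM in the Zcchc8 KO (0.12 ± 0.21, adjusted p 0.689). Mir6236 (0.52), Gm24187 (1.08), Mir8091 (0.53), Mir1898 (-0.58) and Mir186 (-0.12) gave log2 differences that did not pass either. Gm24187 passed without wild-type replicate 2 (1.37) or 3 (1.40). Without wild-type replicate 1, Mir6236, Mir8091 and Mir1898 were at 0.17, 0.14 and -0.27, and Mir6236 was at 1.15 without replicate 2, all short of the threshold.

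Of the genes that share a seed with another, only Mir8116 passed for the mean of the clones, and Mir15b, Mir99b, Mir721 and Mir7679 were not tested. Of the let-7 family, Mir98 differed by 1.69 ± 0.80 (adjusted p 0.105), Mirlet7c-1 by 1.09 ± 0.67 (adjusted p 0.216) and Mirlet7e by 0.79 ± 0.60 (adjusted p 0.329). Mir15a differed by 1.69 ± 0.72 (adjusted p 0.0700) and Mir16-2 by -0.30 ± 0.53 (adjusted p 0.700). Mir221 and Mir222, beside each other, differed by 1.06 ± 0.57 and 1.10 ± 0.64 (adjusted p 0.152 and 0.184). Without wild-type replicate 1, Mir16-2 turned to 0.84 ± 0.57 (adjusted p 0.262), and Mirlet7c-1, Mirlet7e, Mir221 and Mir222 were at 0.70, 0.40, 0.67 and 0.72, none of them past the threshold. These standard errors leave room for changes of the size seen in the genes that passed.

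Of the 34 genes that the filter left out, several held few or no counts in wild type. Mir7655, 2609 bases into Mllt10, a chromatin gene, held 0 counts in wild type, 3 in the Btbd7 KO and 63 in the Zcchc8 KO, where every library held it (0.127 to 1.15 CPM), at least 10.4-fold above wild type. Mir5620 held 1 count in wild type and 61 in the Zcchc8 KO, a ratio of 30.1 (exact 95% interval 5.21 to 1210). Mir484 held 2 and 54, a ratio of 13.3 (3.52 to 113). Gm22328 held 0 and 43, at least 7.08-fold higher, and 9 in the Btbd7 KO, at least 3.67-fold higher. These 4 are named after their values were seen. Each reached 50 counts only with its Zcchc8 KO counts, so these ratios and limits are partly set by the choice of genes. With no filter on counts, all 86 genes were tested and 18 rose and 2 fell (Mir7-1 and Gm26050), where 8.92% of all genes rose and 10.3% fell (19.3% in either direction).

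The deposited PROMPT table gives 1 count for each gene named in it, and how the regions were drawn is not given in the sources used here. It was scaled with the gene table's library sizes. It holds 19 libraries, since wild-type replicate 1 has no column. The PROMPT regions of 75 of the 86 genes could be tested, and 27 were higher and 4 lower in the Zcchc8 KO (41.3% changed), beside 39.2% higher and 3.85% lower of all 17617 regions (43.1% in either direction). The share is near that of all regions. Scaled within the PROMPT table, 21 were higher and 22 lower, beside 30.1% higher and 21.9% lower of all 16765 regions tested there, because that scaling moves the median of all regions from 0.43 to 0.02 on the log2 scale. In the Btbd7 KO, 2 were higher and 3 lower, where 2.97% of all regions changed. The 3 clones differed for 13 regions, and for 10.9% of all regions.

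The regions of Mir3089 and Mir8111, both among the genes that rose, were also higher, as was that of Mir7655, whose gene was not tested. The region of Mir3089 was at 2.55, 3.44 and 2.23 CPM in wild type, at 1.27 to 2.62 CPM in the Btbd7 KO and at 16.2 to 36.5 CPM in the Zcchc8 KO (3.18 ± 0.17, adjusted p 8.73e-25). That of Mir7655 was at 1.33, 1.27 and 1.35 CPM in wild type and at 7.05 to 15.3 CPM in the Zcchc8 KO (3.03 ± 0.22, adjusted p 6.00e-19). That of Mir8111 was at 6.71, 6.73 and 5.51 CPM in wild type and at 14.8 to 27.7 CPM in the Zcchc8 KO (1.73 ± 0.14, adjusted p 2.37e-17). In each of these every Zcchc8 KO library lay above all 7 control libraries, as it did for 14 of the 75 regions and for 21.1% of all regions. None of the 75 had every Zcchc8 KO library below (0.295% of all regions).

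Regions also rose beside genes whose own counts did not pass. For Mir130a, a regulator of blood vessel growth, the region was at 8.51, 11.1 and 10.1 CPM in wild type and at 23.0 to 47.1 CPM in the Zcchc8 KO (1.87 ± 0.12, adjusted p 2.60e-21), while Mir130a itself differed by -0.91 ± 0.65 (adjusted p 0.299) and was highest in wild-type replicate 1 (2.67 CPM), a library with no PROMPT column. Without that library Mir130a was at 0.42 ± 0.70 (adjusted p 0.679), on the other side of 0. Gm19426, which ends 991 bases before Mir130a, rose by 1.93 ± 0.22 (adjusted p 2.28e-07). The region of Mir98 was at 2.95, 2.09 and 0.997 CPM in wild type and at 6.63 to 12.2 CPM in the Zcchc8 KO (2.03 ± 0.24, adjusted p 5.46e-11), and that of Mir99a was at 0.463, 0.598 and 0.586 CPM and at 1.26 to 5.22 CPM (2.58 ± 0.41, adjusted p 2.67e-07). Mir29a, whose own change did not pass (1.69 ± 0.74, adjusted p 0.0763), begins 345 bases past Gm27019, which rose by 2.53 ± 0.42 (adjusted p 3.48e-05). The 4 regions that were lower were those of Mir186, Mir7-1, Mir6407 and Mir7090, at -0.49 ± 0.09 (adjusted p 2.38e-06), -0.25 ± 0.07 (0.00350), -0.38 ± 0.12 (0.00611) and -0.19 ± 0.08 (0.0390). Those of Mir7-1 and Mir6407 missed the threshold without wild-type replicate 2, that of Mir7090 in 8 of 19 fits that left out 1 library, and that of Mir186 was also lower in the Btbd7 KO (-0.47 ± 0.10, adjusted p 0.00397). These 4 genes lie inside hosts, as do 64 of the 86, among them Mir7655, Mir98 and Mir99a, whose regions rose.

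**Figure D5:**
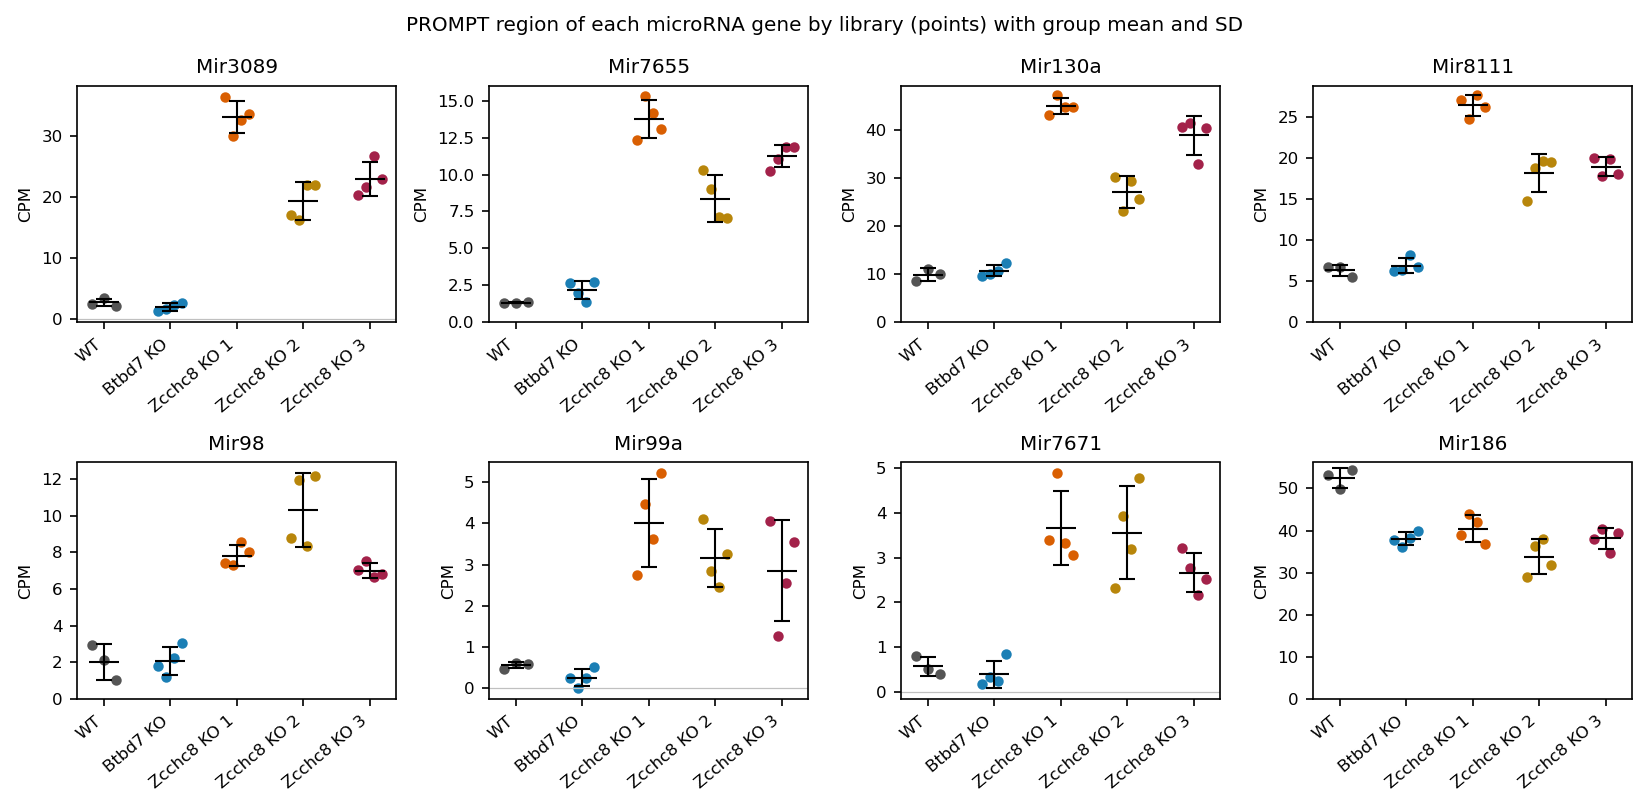
CPM in the PROMPT region of 8 microRNA genes per library (points), with the group mean and SD (bars), wild type (3 libraries), Btbd7 KO and 3 Zcchc8 KO clones. The first 7 have every Zcchc8 KO library above every control, for example 16.2 to 36.5 CPM for Mir3089 against at most 3.44 CPM, while Mir186 is lower in both knockouts than in wild type.

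Position was described after the values were seen and carries no test. Of the hosted genes that were tested, 6 of the 14 within 10 kb of the host's start rose and 1 of the 21 farther along did. Among tested genes with no host, 6 of 11 that lay within 10 kb of an oppositely read start or of the end of a gene on their own strand rose, and 1 of 6 with neither did. Neighbours here are protein-coding, long noncoding or unconfirmed genes with 200 or more counts over all libraries. Of all tested genes 16.2% rose, and no share by position was computed for them. As given above, 13 of the 14 microRNA genes that rose passed the filter only through groups other than wild type.

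In the mean of the clones, the RNAs of proteins that make and use microRNAs changed by at most 0.51 on the log2 scale where they passed the test. Of 31 genes listed for the pathway, 29 were tested, and 1 rose and 9 fell in the Zcchc8 KO (34.5%, beside 36.1% of all genes), while Lin28a and Ago4 were near or at 0. In the nuclear step, Dgcr8, the RNA-binding partner, rose by 0.38 ± 0.07 (adjusted p 8.73e-05) and Drosha, the nuclease, changed by -0.28 ± 0.07 (adjusted p 0.00133), and the cofactors Srsf3 and Hnrnpa1 by -0.27 ± 0.07 and -0.18 ± 0.05 (adjusted p 0.00215 and 0.00314). Dgcr8 and Drosha passed by clone only in clone 3, at 0.88 ± 0.08 and -0.65 ± 0.08 (adjusted p 9.58e-09 and 1.47e-06), and were at 0.11 and -0.10 in clone 1 and at 0.14 and -0.10 in clone 2. In export, Xpo5 changed by -0.36 ± 0.05 (adjusted p 1.09e-06) and Ran by -0.22 ± 0.04 (adjusted p 3.81e-04). In cytoplasmic processing and silencing, Dicer1 changed by -0.30 ± 0.05 (adjusted p 8.34e-05), beside -0.28 ± 0.07 in the Btbd7 KO (adjusted p 0.00395), and Ago2 by -0.24 ± 0.04 (adjusted p 1.42e-04). Of enzymes that act on RNA ends, Tent2 changed by -0.51 ± 0.14 (adjusted p 0.00488). Dis3l2, which degrades uridylated precursors, changed by -0.34 ± 0.06 (adjusted p 3.81e-05). Wild-type values of Tent2 were spread widely, with an SD of 51.5 around a mean of 105 CPM. Set against the Btbd7 KO, Tent2 (-0.11 ± 0.14, adjusted p 0.578), Srsf3 (-0.10 ± 0.07, 0.239) and Dicer1 (-0.02 ± 0.05, 0.810) did not pass in edgeR. The other pathway genes that passed against wild type also passed against the Btbd7 KO. The clones differed for 15 of the 29, beside 28.5% of all genes, and in the Btbd7 KO 2 rose and 2 fell (13.8%, beside 15.7% of all genes).

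Among the named primary transcripts, Mir99ahg rose as given, and Mir670hg rose too. Its level was 0.116 ± 0.231 CPM (SD, n = 4) in wild type and 0.909 ± 0.421, 0.917 ± 0.193 and 1.19 ± 0.749 CPM in clones 1 to 3, and it rose by 2.91 ± 0.77 (adjusted p 0.00433). Mir17hg differed by 0.08 ± 0.14 (adjusted p 0.699), Mir22hg by -0.16 ± 0.12 (adjusted p 0.354) and Mir155hg, of activated lymphoid cells, by 0.80 ± 0.60 (adjusted p 0.319). The others held at most 1 count.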

How the data were processed

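Total RNA of the 20 libraries was made with Illumina's TruSeq stranded kit, per the labels' protocols, and STAR 2.7.3a and FastQC were used, per the submitters' processing notes. The counter, strand setting, annotation and build of the deposited counts are not given in the sources used here, so reads of overlapping or antisense genes are uncertain. The deposited values used are whole-number counts per gene and per PROMPT region, and a second deposited gene table agreed exactly in its 19 shared columns. Of 55471 gene identifiers, 55230 matched GENCODE M21 (GRCm38), from which types, hosts and coordinates were taken. The host is the shortest gene holding the microRNA gene on its strand.

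TMM factors were computed on the whole table, genes were kept at 10 counts or the equivalent CPM (0.730) in 4 libraries, and groups were fitted together in edgeR 4.0.16 (quasi-likelihood, Benjamini-Hochberg). CPM used the same library sizes. Ratios to hosts (0.5 added) were fitted in limma 3.58.1. DESeq2 1.42.0 was an alternative, under R 4.3.3. On simulated counts with the gene table's means, 81% of genes changed 2-fold and 96% of those changed 4-fold were recovered over 15296 genes, and 4.32% of calls were false. The same shares were 71% and 95% over 17711 PROMPT regions (7.26% false) and 54% and 94% over 1345 ratios (3.90% false). The simulations gave every feature the same spread and drew the changed ones from all features. These shares are therefore no measure for the microRNA genes, whose median was 112 counts over 20 libraries. Counting intervals (exact, 95%) and the 3-count limit cover counting error only, and PCR copies are not independent molecules.

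Genes were named by a rule: the 12 with the most counts, up to 10 with the largest rise and 6 with the largest fall, their cluster mates and hosts, ratio pairs that passed, the genes nearest the count limit, and pathway genes that passed. Others that rose, PROMPT regions, seed families and neighbours were named after their values were seen. The genes and lists were chosen with earlier results of these data known. One host gene and the ratio to it are not reported here.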

Additional observations from a re-analysis of the deposited data

Results flagged for a closer look

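Among 23 named microRNA genes in 5 groups of 4 libraries (at most 115 checks, since groups without a spread were skipped), 9 values lay far from the other 3 of their group. Where only 1 library of a group holds the gene, the check marks it by construction. The usual chance rate of about 1 in 20 does not apply to such values. Zcchc8 KO clone 3 replicate 2 was the highest of its clone for Gm23935 (61.5 CPM) and Mir6236 (9.16 CPM). In wild type, replicate 3 alone held Mir8116 (0.299 CPM) and Mir8111 (0.0748 CPM) and was the highest for Mir3089 (1.12 CPM), replicate 4 alone held Mir1934 (0.235 CPM), and replicate 2 alone held Mir7671 (0.116 CPM). In the Btbd7 KO, replicate 3 alone held Mir8111 (0.124 CPM) and replicate 4 was the lowest for Mir8116 (0.0845 CPM).

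The Zcchc8 KO clones differed from each other, by edgeR's quasi-likelihood test over all genes, for Snord43 (adjusted p 0.0392), Mir27a (0.0474) and Mir23a (0.0247). They also differed for Drosha (adjusted p 9.92e-06), Dgcr8 (2.33e-08), Hnrnpa1 (0.00127), Ran (0.0167), Dicer1 (0.0349) and Dis3l2 (6.53e-05).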

How the results depend on the processing

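The count of microRNA genes that passed in the Zcchc8 KO depended on the filter and on the groups fitted. For genes averaging at least 10 counts, 6 of 19 tested passed in place of 14 of 52. Of all 13773 genes tested there, 2145 rose and 3031 fell. By clone 4, 5 and 6 passed in place of 9, 11 and 13, with 7 in place of 13 against the Btbd7 KO. In the Btbd7 KO 0 passed in place of 2, because Mir706 and Mir23b average fewer than 10 counts and were not tested. Fitting only the groups compared gave 5, 2 and 3 by clone and 0 of 18 tested in the Btbd7 KO. At an unadjusted p below 0.05 in edgeR the Btbd7 KO then had 1 (mean of 10 counts) and 0 (only the groups compared), and DESeq2 gave 3. With no filter 17 passed in clone 2 and the clones differed for 5, and DESeq2 gave 14 in clone 1. Of ratios to the host, 1 passed with a mean of 10 counts, where 9 were tested in place of 35, and 8 passed with 2 added to each count. In the Btbd7 KO 0 of the 9 passed with a mean of 10 counts, where none had an unadjusted p below 0.05.

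Leaving out each library in turn gave 12 to 19 genes for the Zcchc8 KO mean, 8 to 15, 9 to 17 and 9 to 17 for clones 1 to 3, 1 to 3 for the Btbd7 KO, 8 to 17 against the Btbd7 KO, 0 to 4 where clones differ, 2 to 8 ratios (8 without wild-type replicate 2) and 1 to 2 in the Btbd7 KO, 30 to 36 hosts, 10 to 11 pathway genes and 27 to 31 PROMPT regions. The largest counts by clone came without wild-type replicate 2, and no clone difference passed without clone 3 replicate 1, 2 or 4, and 8 genes against the Btbd7 KO passed without its replicate 4. The ratio of Snord43 to Rpl3 in the Btbd7 KO ran from -0.14 to 0.11 and did not pass in any of these. The Zcchc8 check ran from -0.64 to -0.57 and the Btbd7 check from -1.05 to -0.9997. With TMM factors computed after the filter, an alternative added after seeing the data, 14 genes passed. The Btbd7 KO had 1 without wild-type replicate 4 or its own replicate 2, 3 or 4. Libraries of the same replicate number did not deviate together (mean correlation 0.006), and the main fit did not pair them. That correlation does not show whether they were prepared in matched sets, which the labels do not say. With the replicate number as a block, 13 genes passed for the Zcchc8 KO mean and 35 hosts.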
